A study of Homo sapiens with 16 samples.

Results

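The 10 genes described here, Gzma, Gzmb, Gzmc, Gzmk, Prf1, Ifng, Fasl, Nkg7, Ncr1 and Klrk1, are a chosen list of cytotoxic effector genes, taken by name from the 32285 genes of the deposited tables. Their unique molecular identifier (UMI) counts were summed over the cells of each deposited cell label and experiment and are given as counts per 1000000 UMIs (CPM), with the range over the captured pools. The cells came from LPA1-T22 (T22) and LPA1-T127 (T127) tumors, which are mouse mammary tumors carried by transplanting tumor pieces into the mammary fat pads of female FVB mice bought at 6 weeks of age, which are syngeneic hosts with an intact immune system. In the long-term experiment (8 pools), T22 and T127 tumors grew as single strain transplants or were co-transplanted on opposite sides of a mouse, and the mice received olaparib, a PARP inhibitor, at 50 mg/kg/day by mouth or vehicle for 20 days. In the short-term experiments, T22 (4 pools) and T127 (4 pools) tumors were each captured in pools of their own after 4 or 8 days of olaparib or vehicle. Each pool mixed cells of several tumors that had been tagged with oligos, and no table used here ties a cell to its tumor. Each experiment therefore counts as 1 sample, no test was run, olaparib is not compared with vehicle, and the tumor model and its set of pools cannot be told apart. The intervals given are 95% intervals that cover counting error only. Since each pool mixed several tumors, the ranges over pools do not show the spread between tumors.

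Natural killer (NK) cells and cytotoxic T cells kill by releasing granules. Perforin (Prf1) opens the membrane of the target cell, and granzymes, a family of serine proteases, enter and cleave proteins inside it. Gzma and Gzmb are the granzymes best known for this, Gzmc belongs to a gene cluster next to Gzmb that is induced strongly in activated mouse killer cells, and Gzmk marks a subset of T cells. Nkg7 is a membrane protein of the granules that takes part in their release. Fas ligand (Fasl) kills through the Fas receptor without granules, and interferon gamma (Ifng) is the cytokine that the same cells secrete. Ncr1 (NKp46) and Klrk1 (NKG2D) are activating receptors by which NK cells recognise tumor cells. The authors named NK cells from Ncr1 and Nkg7 together with Cd45, and all clusters were built from these cells, so the height of the members in the NK label against other labels is a description of that label.

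The deposited tables held 53946 cells under 22 labels. The long-term pools held 3093 to 5670 cells and 34755906 to 44032925 UMIs each. The T22 pools held 40270841 to 42436039 UMIs and the T127 pools 49690430 to 55600377 UMIs. Long-term pools 1 and 2 shared 3939 cell barcodes, pools 1 and 3 shared 987, and pools 2 and 3 shared 1082, whereas every other pair of pools within an experiment shared 8 or fewer. The deepest copy of each shared barcode was kept, which left 25723 of the 30845 long-term cells. Long-term pools 1 to 3 may therefore not be separate captures, which limits what the ranges over 8 pools show. The NK label held 281 long-term cells (1.09% of that experiment), 1193 T22 cells (7.90%) and 141 T127 cells (1.76%), with medians of 5248, 6543 and 6064 UMIs per cell. All 6 NK markers listed for this work (Ncr1, Klrb1c, Klrd1, Eomes, Klra8 and Xcl1) were detected in the NK label of each experiment. The label also held UMIs of all 5 T cell markers listed, which summed to 1255 CPM in the long-term pools, 1095 CPM in T22 and 1131 CPM in T127, with Cd3g at 288 to 497 CPM, whereas Foxp3 was at 0 throughout. The part of those cells in the levels below was measured by splitting the label, as given further on.

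Of the 10 members, 9 had their highest long-term CPM in the NK label, both among all 22 labels and among the 21 with at least 50 cells. Over all genes with at least 10 long-term UMIs, 2.30% were highest in the NK label among the 22. The exception was Gzmk, which was highest among regulatory T cells (Tregs) at 10.9 CPM, a value that rested on 5 UMIs in 2 cells. Among the labels with at least 50 cells, 9 members were again highest in the NK label in the T22 pools and 6 in the T127 pools, against 4.90% and 5.86% of all genes with at least 10 UMIs there. In T127 Gzmb was highest in Tregs, and Gzmk had no UMI in any label. The T127 order was not resolved for Ifng and Fasl. Ifng stood at 43.2 CPM in Tregs and 39.0 CPM in NK cells (ratio 1.11, interval 0.637 to 1.89), with 16 of the 24 Treg UMIs in 1 cell and 14.4 CPM without it. Fasl stood at 101 CPM in the label CD4_Tcm-TCF7 and 95.9 CPM in NK cells (1.06, 0.761 to 1.46), and at 112 CPM in the 18 cells of CD8_Tn-CCR7. The distance to the next label differed widely between members. In the long-term pools Gzma was 8.20-fold higher in NK cells than in the next label, Tgd (interval 7.53 to 8.95), and Ifng was 4.75-fold higher than in CD4_Tcm-TCF7 (3.75 to 6.04). Nkg7 was 1.28-fold above the label CD8_Tn-CCR7 (1.18 to 1.38) and Fasl 1.47-fold above it (1.02 to 2.18). Both therefore stood closer to their next label than Gzma or Ifng did. This does not hold for every T cell label. Against CD4_Tcm-TCF7, Nkg7 was 4.17-fold higher in NK cells (3.95 to 4.40), near the ratio of Ifng, and Fasl 2.09-fold higher (1.72 to 2.55).

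**Figure D1:**
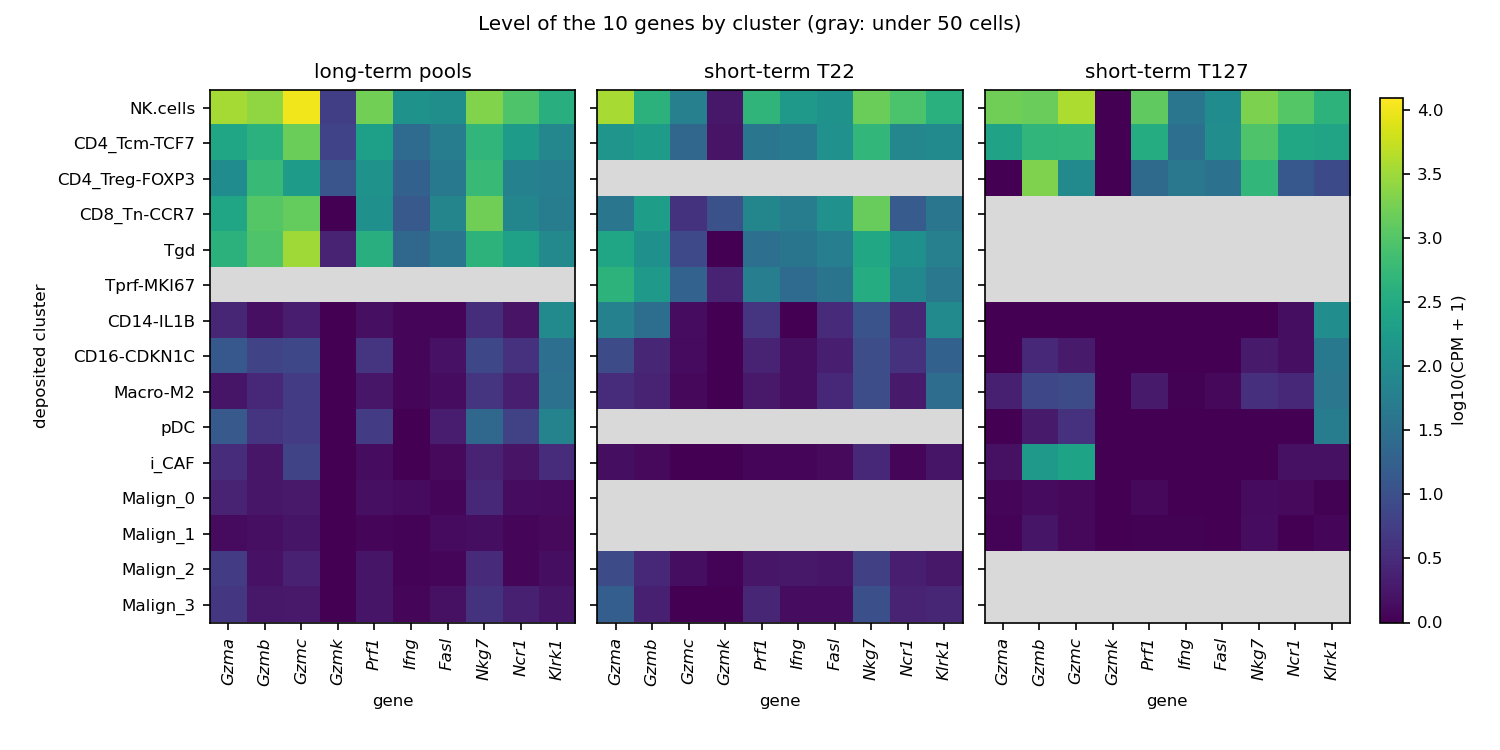
Heat map of the 10 members (columns) in deposited cell labels (rows: NK, the 5 T cell labels and 9 others) of the long-term, T22 and T127 pools, colored by log10(CPM + 1) from dark (0) to bright (high), with labels of fewer than 50 cells in gray. The NK row is the brightest for Gzma, Prf1 and Ncr1 in every experiment, Gzmb reaches 2010 CPM in T127 Tregs, and Klrk1 extends over the monocyte and macrophage labels.

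The NK label held 54.96% of the 74430 long-term UMIs of the 10 members summed, 64.5% of those in T22 and 61.4% of those in T127. The 5 T cell labels together held 33.0%, 31.5% and 24.4%. By gene the NK share of the long-term UMIs ran from 69.8% for Gzma, 63.3% for Prf1 and 60.7% for Gzmc down to 45.6% for Nkg7, 32.2% for Fasl and 12.2% for Klrk1, leaving out Gzmk with its few UMIs. In T22 Gzma was again first at 82.95% and Ncr1 stood at 77.0%, but Fasl was the lowest of these 9 at 30.3% and Klrk1 stood at 50.9%. For Fasl the 5 T cell labels held the larger part in every experiment, at 52.1%, 67.0% and 50.0% in the long-term, T22 and T127 pools. The 7 monocyte and macrophage labels held 76.7% of the long-term, 61.8% of the T127 and 21.0% of the T22 Klrk1 UMIs, so that in T22 NK cells held more of this gene than they did. Such shares also depend on the number of cells in a label, and are not levels. NK cells made up 1.09% of long-term, 7.90% of T22 and 1.76% of T127 cells, and their Klrk1 stood at 380, 397.5 and 443.6 CPM.

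**Figure D2:**
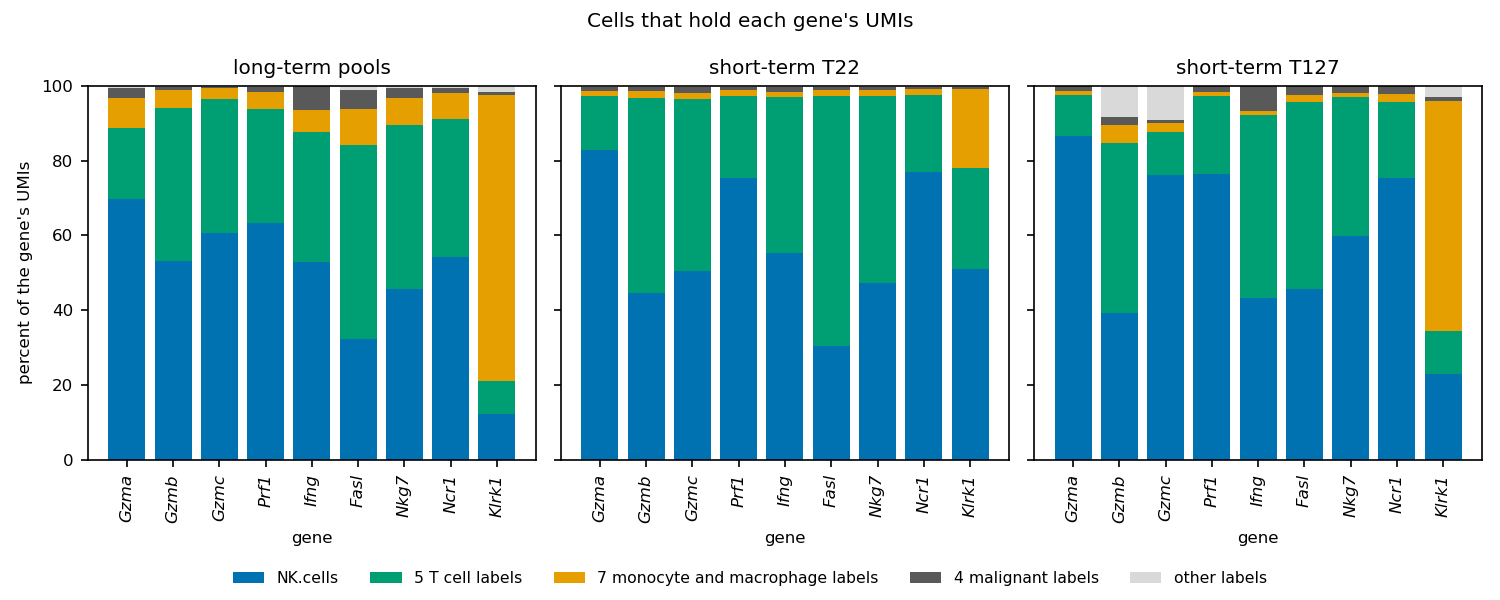
Stacked bars giving the percent of each member's UMIs found in the NK label, the 5 T cell labels, the 7 monocyte and macrophage labels, the 4 malignant labels and all others, by experiment, for the 9 members other than Gzmk. NK cells hold 82.95% of Gzma UMIs in T22 and 12.2% of Klrk1 UMIs in the long-term pools.

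The short-term NK cells of T22 and T127 tumors differed in the RNA of several members. Gzma and Ifng were at least 2-fold higher in T22, and Gzmb, Gzmc and Prf1 were at least 2-fold higher in T127. Fasl, Nkg7, Ncr1 and Klrk1 lay within 2-fold. Over all 7440 genes with enough UMIs to compare, 5.99% were at least 2-fold higher in T22 NK cells and 2.27% at least 2-fold higher in T127 NK cells, against 2 and 3 of the 9 members with enough UMIs. The median log2 ratio of T22 to T127 was −0.25 over those 9 members and 0.03 over all genes. The share of all genes whose T22 and T127 pools did not overlap was not counted, so a lack of overlap does not set a gene or list apart. Of the marker lists summed in the 2 NK labels, 7 differed with no overlap of pools. The pools overlapped for the lists of NK, T, CD8, gamma delta and B cells. They also overlapped for those of malignant cells, fibroblasts and endothelial cells. The summed proliferation markers were at 904 CPM in T22 (744 to 1026) and 377 CPM in T127 (273 to 464), and those of ILC1 or tissue NK cells at 379 CPM (353 to 396) and 174 CPM (113 to 228). Those of naive or central memory cells were at 269 CPM (250 to 280) and 559 CPM (466.2 to 700.3), and those of Tregs, with Foxp3 at 0, at 40.75 CPM (33.1 to 46.2) and 122 CPM (98.6 to 154). The exhausted or effector markers were at 100.1 CPM (97.2 to 104) and 197 CPM (150.2 to 242), higher in T127 as Gzmb, Gzmc and Prf1 were. The macrophage markers were at 131.5 CPM (74.7 to 171) and 25.98 CPM (17.5 to 34.25), higher in T22. Cd4, a list of its own, stood at 2.37 CPM in T22 and had no UMI in T127. The part of these differences in the members' ratios was not tested.

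Gzma, the tryptase-like granzyme, stood at 3685 CPM in T22 NK cells and 1644 CPM in T127 NK cells, a 2.24-fold difference (2.13 to 2.36). Its pools read 3417, 3176, 4403 and 3845 CPM in T22 and 2230, 1339, 1469 and 1623 CPM in T127. Every T22 pool was above every T127 pool. Ifng stood at 164 CPM in T22 and 39.0 CPM in T127, 4.22-fold apart (3.07 to 5.95). The T22 pools of Ifng read 146, 211, 121 and 174 CPM and the T127 pools 37.55, 8.34, 38.1 and 66.6 CPM. The T127 level of this cytokine rested on 39 UMIs in 13 of 141 cells, and the ranges did not overlap.

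Gzmb, the granzyme that activates caspases, went the other way, with 434 CPM in T22 and 1472 CPM in T127, which is 3.39-fold higher in T127 (3.19 to 3.60). The T22 pools of Gzmb read 410, 366, 537 and 438 CPM and the T127 pools 1295, 1402, 1104 and 2002 CPM. The lowest T127 pool was above the highest T22 pool. Perforin showed the same order with less spread, at 473 CPM in T22 and 1252 CPM in T127, 2.65-fold higher in T127 (2.48 to 2.82). The 4 T22 pools of Prf1 lay between 425 and 526.2 CPM and the 4 T127 pools between 1135 and 1332 CPM. The pools of each model were close together and the models well apart, but pools of mixed tumors are not separate tumors of a model.

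Gzmc had the largest ratio of any member. It stood at 59.8 CPM in T22 NK cells and 3879 CPM in T127 NK cells, 64.8-fold higher in T127 (59.3 to 71.0). The T22 pools read 96.0, 13.9, 79.3 and 51.4 CPM and the T127 pools 2844, 2678, 3604 and 5914 CPM. The gap held in every pool, but the T127 level was carried by few cells. Of 141 T127 NK cells, 69 had a Gzmc UMI, 1 cell held 13.1% of all 3882 UMIs, and the 14 cells with the most Gzmc held 68.6%. The 14 cells highest for Prf1 held 34.8% of its UMIs, and the 14 highest for Nkg7 held 24.95%. Without its top cell the T127 level was 3369 CPM.

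**Figure D3:**
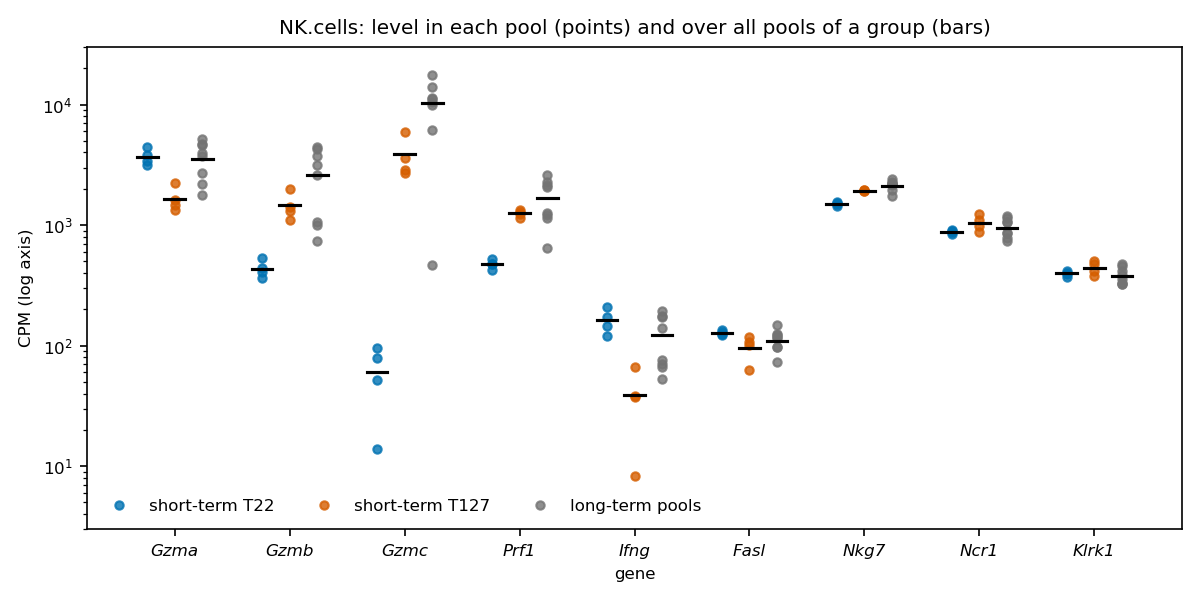
CPM of the 9 members other than Gzmk in NK cells on a log axis, 1 point per pool, for the T22, T127 and long-term pools, with a short bar for the level over all pools of an experiment. The T22 and T127 points do not overlap for Gzma, Gzmb, Gzmc, Prf1, Ifng, Fasl and Nkg7 and do overlap for Ncr1 and Klrk1. The share of all genes without such overlap was not counted.

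The receptors and the granule membrane protein differed little. Nkg7 was at 1505 CPM in T22 and 1930 CPM in T127, 1.28-fold higher in T127 (1.22 to 1.35), and its pools were tight, at 1450 to 1542 CPM against 1903 to 1952 CPM. Fasl was at 128 CPM in T22 and 95.9 CPM in T127, with pools of 122.5 to 134 CPM against 63.1 to 118 CPM. Neither of these small differences overlapped between the pools. Ncr1 stood at 883 and 1048 CPM and Klrk1 at 398 and 444 CPM in T22 and T127, and for both receptors the pool ranges overlapped. Gzmk was all but undetected in NK cells, with 8 UMIs in 6 of 1193 T22 cells and none in T127, where a count of 0 allows up to 3.00 CPM.

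**Figure D4:**
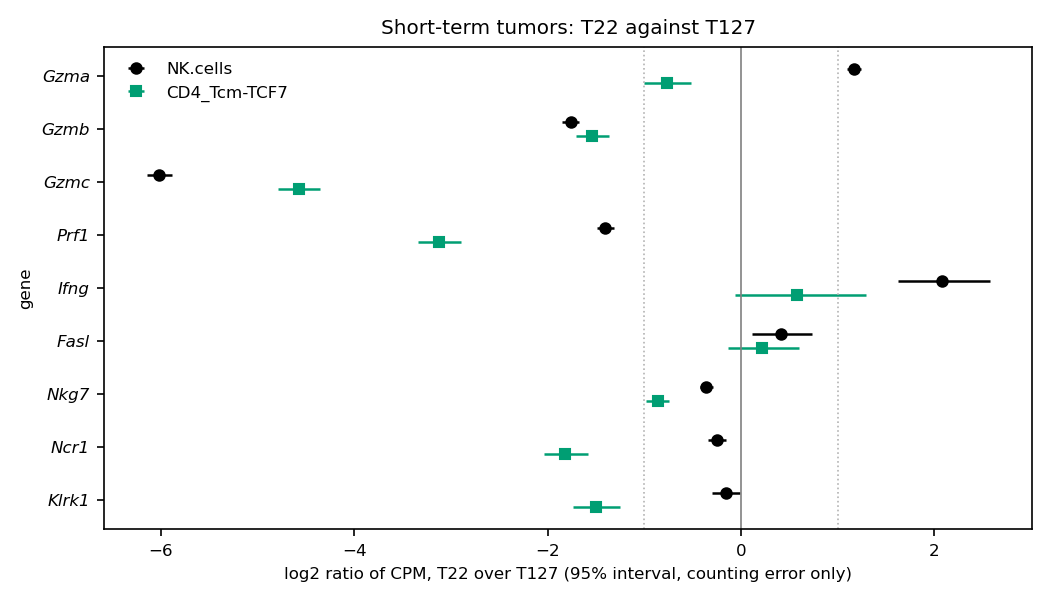
Log2 of the plain ratio of T22 to T127 CPM, with nothing added, for the 9 members other than Gzmk in NK cells (circles) and in the label CD4_Tcm-TCF7 (squares), with 95% counting intervals as bars and dotted lines at 2-fold. In NK cells Ifng (4.22-fold) and Gzma (2.24-fold) lie past 2-fold to the right, Prf1, Gzmb and Gzmc lie past it to the left, and in CD4_Tcm-TCF7 no member lies past it to the right.

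The share of NK cells with a UMI was compared after each cell was thinned to 2000 UMIs, which left out 1 or 2 cells per experiment. Gzmb was then detected in 25.4% of T22 NK cells (22.9 to 27.9) and 57.1% of T127 NK cells (48.5 to 65.5). Gzmc was detected in 3.61% (2.63 to 4.83) and 45.0% (36.6 to 53.6), and Prf1 in 42.9% (40.1 to 45.8) and 75.7% (67.8 to 82.6). For all 3 genes, then, both the level and the share of positive cells were higher in T127. The Ifng share was 15.2% in T22 (13.2 to 17.4) and 5.00% in T127 (2.03 to 10.0). The Gzma share was 56.3% (53.4 to 59.1) and 47.1% (38.7 to 55.75), so that its 2.24-fold difference in level came with a much smaller difference in the share of cells. Without thinning, the shares in T22 and T127 were 61.4% and 57.4% for Gzma, 36.7% and 76.6% for Gzmb, and 6.29% and 48.9% for Gzmc. Malignant cells, which should lack these genes and had medians of 18462 to 33836 UMIs, were thinned in the same way for comparison. No member was found in more than 0.87% of the cells of the 4 malignant labels combined in any experiment, the value for Gzma and for Nkg7 in T22. In the small label Malign_3 of T22 alone the highest share was 2.29%. Thinning discards a larger part of the UMIs of such deep cells than of NK cells, so these shares do not measure the background in NK cells.

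Long-term NK cells carried Gzma, Gzmb, Gzmc and Prf1 at levels that spread widely over the pools. These pools mix single strain and co-transplanted tumors of both models and were treated for longer, so their values are not compared with the short-term ones. Gzma was at 3564 CPM, with 1771 in the lowest pool, a median of 3845 and 5184 in the highest. Gzmb was at 2613 CPM (734, 2876 and 4455) and Prf1 at 1662 CPM (641, 1670 and 2611). Gzmc was at 10311 CPM (463, 10798 and 17518), the widest spread of the members with more than a few UMIs, and at 6139 CPM with the cells thinned. Each pool held only 26 to 41 NK cells. Nkg7 at 2112 CPM (1744, 2184 and 2403), Ncr1 at 942 CPM (738, 960 and 1189) and Klrk1 at 380 CPM (324, 370 and 479) were far steadier from pool to pool. Ifng was at 122 CPM (52.4, 108 and 195) and Fasl at 108 CPM (73.3, 117 and 147).

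Several members were found more often in long-term NK cells that also had another member. These pools mix tumors of both models, whose short-term NK cells differed in Gzmb, Gzmc and Prf1, and the part of that mix was not tested. In thinned long-term NK cells, Gzmb was found in 62.5% of the 176 cells with Gzma (54.9 to 69.7) and in 36.5% of the 104 cells without it (27.3 to 46.55), and Prf1 in 78.4% (71.6 to 84.2) and 42.3% (32.7 to 52.4). Gzmc followed Gzmb, at 50.7% of cells with Gzmb (42.3 to 59.0) and 13.6% of those without (8.29 to 20.7), and Prf1 was found in 91.4% of the 93 cells with Gzmc (83.75 to 96.2) and 51.9% of those without (44.5 to 59.2). In the short-term NK cells these shares were 39.5% and 43.0% in T22 and 79.4% and 72.7% in T127, with overlapping intervals. Fasl was found in 23.0% of cells with Gzmb and 23.5% of cells without, and Ifng in 11.5% and 14.4%. By Gzma the Fasl shares were 25.6% and 19.2% in long-term and 25.8% and 12.2% in T127 NK cells, with overlapping intervals in both. In T22 NK cells Prf1 was found in 64.0% of cells with Gzma (60.3 to 67.7) and 15.7% of cells without (12.7 to 19.2). In T127 the shares were 83.3% (72.1 to 91.4) and 68.9% (57.1 to 79.2), with overlapping intervals. Gzmb by Gzma was at 35.7% and 12.1% in T22. In T127 it was at 69.7% (57.15 to 80.4) and 45.95% (34.3 to 57.9), where the intervals overlapped. Gzmc by Gzmb was at 6.95% and 2.48% in T22 and 58.75% and 26.7% in T127, without overlap in either. A UMI of all 4 of Gzma, Gzmb, Gzmc and Prf1 was found in 1.01% of T22 NK cells (0.522 to 1.75) and 18.6% of T127 NK cells (12.5 to 26.02), and a UMI of none of them in 31.2% (28.6 to 33.95) and 7.14% (3.48 to 12.7). A Gzmc UMI was found in 43 of 1191 T22 and 63 of 140 T127 cells, which caps the share with all 4. No share expected from the single genes was worked out. These intervals cover counting error only, and the difference was not tested. In long-term NK cells the shares were 20.4% and 14.6%.

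Splitting the NK label by CD3 moved the levels of the granule genes. Gzma and Gzmc kept their order between the models in both parts, but Gzma lay within 2-fold in the cells with CD3. Thinned T22 cells with a UMI of Cd3d, Cd3e or Cd3g (337 of 1191) held 1660 CPM of Gzma and 240 CPM of Prf1, and those without held 4583 and 606 CPM. In T127 (54 of 140 cells with CD3) Gzma was at 1398 CPM with and 2145 CPM without CD3, and Gzmc at 2370 and 3041 CPM. In T22 Gzmc was instead higher in the cells with CD3, at 132 CPM against 41.0 CPM. When cells with a CD3 UMI at full depth, rather than after thinning, were left out and all UMIs of the others counted, the log2 ratio of T22 to T127 for Gzmc was −7.69, and no member changed its direction. Cells of the label with a CD8 but no Cd4 UMI were few (31 in T22, 2 in T127) and in T22 held no Gzma UMI.

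The related genes were taken from lists by role. Of the other granzymes, the 3 with enough UMIs in NK cells (Gzmd, Gzme and Gzmf, neighbours of Gzmc in the same gene cluster) were all higher in T127. Gzmd had no UMI among 9276425 in T22 NK cells, which allows up to 0.323 CPM. It stood at 660.5 CPM in T127, higher by at least 1656-fold, the lower end of the interval. Gzme had 2 UMIs in T22 and 267 CPM in T127, and Gzmf 2 UMIs in T22 and 750 CPM in T127. The T127 pools of Gzmd ran from 53.3 to 1441 CPM and those of Gzmf from 0 to 1276 CPM, with all 751 Gzmf UMIs in 7 cells, so both levels were set by few cells. In the long-term NK cells Gzmd was at 4990 CPM in 50 cells and Gzmf at 5026 CPM in 23 cells.

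Genes that load and release granules mostly lay within 2-fold: of 9, 1 was at least 2-fold higher in T127 and none in T22. The exception was Cst7 (cystatin F, an inhibitor of the cathepsins that activate granzymes), at 114 CPM in T22 and 464 CPM in T127. The granule proteoglycan Srgn stood at 1436 and 1797 CPM and the membrane fusion gene Unc13d at 28.1 and 35.0 CPM. Of 12 NK receptors and adaptors, Cd226 (163 and 61.95 CPM) and Hcst, the adaptor that signals for Klrk1 (743 and 317 CPM), were higher in T22, and Klra7 (120.5 and 388 CPM) was higher in T127. Of 6 lineage factors and cytokine receptors, 5 had enough UMIs and 1, Il12rb2, was higher in T127 at 81.9 CPM against 38.5 CPM. The lineage factors Eomes (376 and 301 CPM) and Tbx21 (111.5 and 145 CPM) lay within 2-fold.

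Of 5 genes listed as a further death ligand or chemokines, the 3 CC chemokines were higher in T22 NK cells. Ccl5 was at 3581 CPM in T22 and 795 CPM in T127, Ccl3 at 137 and 16.0 CPM, and Ccl4 at 785 and 41.0 CPM, which are 4.50-fold (4.20 to 4.84), 8.59-fold (5.27 to 15.1) and 19.2-fold (14.1 to 26.7). Xcl1 (1906 and 1487 CPM) and the death ligand Tnfsf10 (24.9 and 12.0 CPM) were not past 2-fold on the scale with 1 CPM added. The T22 and T127 pools of Xcl1 overlapped. Of the granzyme inhibitors that protect the killer cell itself, 4 had enough UMIs, and Serpinb9 (595 CPM in T22, 1289 CPM in T127) and Serpinb9b (9.06 and 21.0 CPM) were higher in T127, the same side as Gzmb, the protease Serpinb9 inhibits. The Serpinb9b pools overlapped, at 7.11 to 15.1 CPM and 0 to 32.9 CPM, with 21 UMIs in T127.

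In the label CD4_Tcm-TCF7 no member was at least 2-fold higher in T22 and 5 of the 9 with enough UMIs were higher in T127, against 6.57% and 3.29% of 6258 genes. The label held 2438 T22 cells with a median of 6403 UMIs and 204 T127 cells with a median of 2803.5 UMIs. The part of this difference in the result was not tested. Gzmb stood at 174 CPM in T22 and 504 CPM in T127, with pools of 147 to 198.5 CPM against 303 to 635 CPM. Gzmc stood at 21.9 and 523 CPM (11.7 to 40.6 against 58.9 to 1061 CPM) and Prf1 at 39.3 and 343 CPM (35.6 to 43.2 against 135 to 597 CPM). Ncr1 (78.9 and 278 CPM) and Klrk1 (86.95 and 246 CPM) made up the 5, and none of their pool ranges overlapped. Here too the share of all genes without such overlap was not counted. Gzma (136.5 and 232 CPM) and Fasl (118 and 101 CPM) had overlapping pools, Nkg7 stood at 515 and 938 CPM, and Ifng at 45.8 and 30.7 CPM. Gzma and Ifng, which were higher in T22 NK cells, were therefore not past 2-fold in this label. The median log2 ratio of the 9 members was −1.49, against −0.01 for all genes.

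Some markers of other cells moved with that result. The pools overlapped for the lists of T cells, CD8, Tregs, exhausted or effector cells, gamma delta T cells, macrophages and malignant cells. All 6 NK markers were detected in CD4_Tcm-TCF7, and they summed to 696 CPM in T22 (pools 635 to 756) and 1463 CPM in T127 (1151 to 1858). The naive or central memory markers moved more, from 337 CPM in T22 (331 to 355) to 1617 CPM in T127 (1467 to 1805), and those of ILC1 or tissue NK cells were at 1559 CPM (1526 to 1629) and 1136 CPM (1050 to 1201). Cd4 itself was at 47.8 CPM in T22 (42.2 to 51.25) and 108 CPM in T127 (88.3 in its lowest pool), and the proliferation markers at 326 CPM (235 to 376.5) and 524 CPM (376.9 to 628), where the pools nearly touched. Fibroblast markers were at 27.8 CPM (21.7 to 32.55) and 63.0 CPM (50.8 to 78.2), and endothelial markers at 33.3 CPM (26.5 to 37.7) and 93.8 CPM (53.85 to 121). B cell markers were under 1 CPM in T22 and had no UMI in T127. The part of these cells and T cell states in the result was not tested. In thinned T22 cells of the label, Ncr1 was at 41.7 CPM in the 2074 cells with a CD3 UMI and 492.5 CPM in the 266 without. In T127 it was at 95.6 CPM in 136 cells with CD3 and 833 CPM in 24 without. Cells without a CD3 UMI at full depth, rather than after thinning, were then left out, and all UMIs of the others were counted. On that count 6 members were higher in T127, against 3.21% of all genes. These were the 5 above at log2 ratios of −1.44 (Klrk1) to −5.00 (Gzmc), and Gzma at the 2-fold limit itself. The label held cells with either coreceptor: among 2340 thinned T22 cells 212 had a Cd4 UMI without CD8 and 254 a CD8 UMI without Cd4, counts that depth limits. Gzmb was at 159 CPM in the T22 cells with CD8 and 49.5 CPM in those with Cd4.

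Tregs of the T127 tumors carried Gzmb and Nkg7, with few or no UMIs of Gzma and Prf1. Their Foxp3, the factor that defines Tregs, was at 613.5 CPM, and 2 of the 136 thinned cells lacked a CD3 UMI. Gzmb was at 2010 CPM over 149 cells (1894 to 2131), with 2396, 2267, 1968 and 1194 CPM in the 4 pools, and 110 cells had a UMI. This was 1.37-fold the level in T127 NK cells (1.26 to 1.48), but the pool ranges of the 2 labels overlapped. Both labels came from the same pools. Pool by pool, Tregs were higher except in the last pool listed, where NK cells were higher. After thinning, 66.9% of Tregs (58.3 to 74.7) and 57.1% of NK cells had a Gzmb UMI, so the intervals overlapped too. Gzma had no UMI in these Tregs, which allows up to 5.40 CPM. Its ratio to T127 NK cells was at most 0.004042, the upper end of the interval. Prf1 was at 25.2 CPM in 5 cells, Ncr1 at 12.6 CPM in 1 cell, and Klrk1 at 7.20 CPM in 2 cells. Gzmc was at 88.2 CPM, with 57.1% of its UMIs in 1 cell, and Nkg7 was at 513 CPM in 43 cells. Thinned cells with a Foxp3 UMI held 2333 CPM of Gzmb (2112 to 2572) and no Prf1 UMI, and those without Foxp3 held 1418 CPM of Gzmb (1192 to 1675). Long-term Tregs (113 cells) held Gzmb at 580 CPM, with 282 in the lowest pool, a median of 423 and 1300 in the highest. Their 3 Treg markers summed to 1403 CPM, against 3532 CPM in T127, and their 6 NK markers to 322 CPM against 103 CPM, so the label differed in its markers between the experiments and its Gzmb levels are not compared. The T22 pools held 5 Tregs in all. Foxp3 was also found in 27 thinned T22 cells of CD4_Tcm-TCF7, and these held 870 CPM of Gzmb (640 to 1157) and no Gzma or Prf1 UMI, against 161 CPM in the 2313 cells without Foxp3.

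The other T cell labels held fewer cells, and single cells set many of their levels. CD8_Tn-CCR7, named as naive CD8 T cells, had Nkg7 at 1655 CPM in the long-term pools (81 cells), 1384 CPM in T22 (257 cells) and 1414 CPM in T127 (18 cells), against 2112, 1505 and 1930 CPM in NK cells. Its Gzmb was at 1058, 200 and 1443 CPM, and its Ncr1 at 75.9, 14.1 and 74.9 CPM. The long-term Gzmc of the label (1371 CPM) lay in 7 cells, 1 of which held 577 of 632 UMIs. Gzmk reached its highest T22 level here, at 9.42 CPM (22 UMIs in 11 cells, pools 8.10 to 12.4 CPM). The label Tgd, gamma delta T cells, had Gzmc at 3279 CPM in 26 of 207 long-term cells and at 6.91 CPM in T22. Its T127 cells (17) held Gzmc at 1095 CPM in 8 cells and Ncr1 at 635 CPM, and are too few for a comparison with T22. The proliferating label Tprf-MKI67 in T22 (418 cells) had Gzma at 442.5 CPM in 54 cells, with pools from 213 to 910 CPM, and Gzmb at 167 CPM.

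Outside lymphocytes some values were set by single cells, and others, Klrk1 above all, were spread over many. In long-term Macro-M2 the top cell held 0.74% of Klrk1, 19.1% of Nkg7 and 66.7% of Gzmc UMIs. In Macro-MKI67 of the long-term pools 343 of 350 Gzmc UMIs lay in 1 cell, in CD14-IL1B of T22 172 of 174 Gzma UMIs lay in 1 cell, and in Macro-MKI67 of T22 141 of 143 Gzma UMIs did. These cells were singled out after their values were seen. Granzyme UMIs were also found in T127 fibroblasts. In the label i_CAF, inflammatory cancer-associated fibroblasts, 17 of 95 T127 cells from all 4 pools had a UMI of Gzmb or Gzmc, a rule set after the values were seen. They held 305 Gzmb UMIs in 7 cells, 465 Gzmc UMIs in 17 cells, 97 Gzmd UMIs in 7 cells and 474 Gzme UMIs in 11 cells. Single cells held much of this, with 151 of the Gzmb, 151 of the Gzmc and 131 of the Gzme UMIs in the top cell of each gene. Without its top cell the label's T127 level was 79.9 CPM for Gzmb and 163 CPM for Gzmc. They held no UMI of Gzma, Gzmf, Gzmg, Prf1, Nkg7, Ncr1 or Cd3g, and 7 of the leukocyte gene Ptprc. Their Col1a1 was at 17265 CPM, close to the 17862 CPM of the other 78 cells, and their Dcn was at 2039 CPM against 6707 CPM. The chosen cells had a median of 29632 UMIs and the other 78 a median of 18638, and the part of depth in the choice was not tested. The other 78 cells, which lack Gzmb and Gzmc by that rule, had no UMI of Gzmd, Gzme, Gzmf or Gzmg. In long-term i_CAF cells Gzmc was detected in 29 of 726 cells with 64 UMIs, and T22 i_CAF cells held 2 UMIs of these 6 granzymes. The 33 long-term i_CAF cells chosen by the same rule did hold lymphocyte genes, with 19 Cd3g UMIs in 2 cells, 6 Nkg7 and 18 Ptprc UMIs. In T22 the 2 chosen cells of my_CAF, myofibroblastic fibroblasts, held 29 Cd3g and 21 Ptprc UMIs, and the 2 of i_CAF held neither gene.

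**Figure D5:**
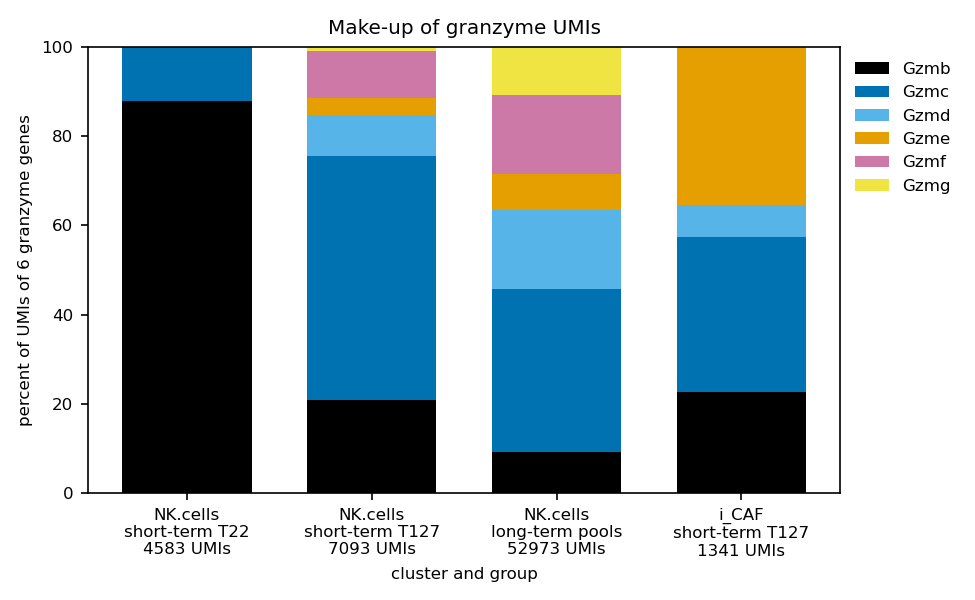
Stacked bars giving the percent of the summed UMIs of Gzmb, Gzmc, Gzmd, Gzme, Gzmf and Gzmg that each gene made up in NK cells of the T22, T127 and long-term pools and in T127 i_CAF cells. Gzme makes up 35.35% in the fibroblasts and 3.76% in T127 NK cells, Gzmf 0% and 10.6%, and Gzmb 87.8% in T22 NK cells.

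The make-up of these 6 granzymes' UMIs was compared between the cells that held them. In T127 NK cells Gzmb made up 20.8%, Gzmc 54.7%, Gzme 3.76% and Gzmf 10.6% of their summed UMIs. In T127 i_CAF cells Gzmb made up 22.7%, Gzmc 34.7%, Gzme 35.35% and Gzmf 0%. These shares rest on few cells, since 1 fibroblast held 49.5% of the Gzmb UMIs and 7 NK cells held all Gzmf UMIs. In the long-term pools NK cells, Tgd and CD4_Tcm-TCF7 had mixes nearer to each other, with Gzmc at 36.5%, 36.9% and 35.8% and Gzmd at 17.7%, 18.6% and 12.9%. In T22 NK cells Gzmb made up 87.8% and Gzmc 12.1%.

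Klrk1 was found broadly in myeloid cells. Its level in the 7 monocyte and macrophage labels ran from 21.7 to 86.1 CPM in the long-term pools, from 9.25 to 89.3 CPM in T22, and, in the 6 with at least 50 cells, from 19.1 to 101 CPM in T127. The highest was CD14-IL1B, an inflammatory monocyte label, in each experiment, at 86.1, 89.3 and 101 CPM. The 4 malignant labels held 0.06 to 1.72 CPM. In T127 the CD14-IL1B cells had 251 Klrk1 UMIs in 84 of 144 cells and no Nkg7 UMI. That count of 0 allows up to 1.21 CPM of Nkg7, against 1930 CPM in NK cells of the same pools. Klrk1 made up 100% of the summed UMIs of Klrk1 and Nkg7 in those cells, 97.3% in the long-term (95.6 to 98.5) and 89.9% in the T22 ones, against 15.3%, 20.9% and 18.7% in the NK cells of the long-term, T22 and T127 pools. In thinned cells the T127 share with a Klrk1 UMI was 16.7% in CD14-IL1B (11.0 to 23.8), 6.99% in Macro-M2 (5.59 to 8.60) and 0.041% in malignant cells. At full depth it was 58.3%, 24.2% and 0.246%. The adaptor Hcst stood at 18.9 CPM in T127 CD14-IL1B cells and 38.7 CPM in Macro-M2, and Tyrobp, a signalling adaptor of NK and myeloid cells, at 1531 and 2910 CPM. Introns were counted, and an overlap of Klrk1 with a neighbouring gene was not checked here.

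On the side of the target, the malignant cells of the short-term pools differed in the receptor of Fasl. Fas was at 70.0 CPM in the malignant cells of T22 and 0.68 CPM in those of T127, 103-fold apart (85.5 to 124), and the long-term values by malignant label were 62.9 and 0.87 CPM. The malignant labels were assigned to a model as the study assigned them, with Malign_2 and Malign_3 as T22 and Malign_0 and Malign_1 as T127. Of the ligands of Klrk1, Ulbp1 was at 18.5 CPM in T22 and 24.2 CPM in T127, H60c at 15.7 and 0.028 CPM (5 UMIs), and H60b at 0.15 and 1.49 CPM. Ifngr1, a chain of the receptor of Ifng, was at 32.2 and 59.6 CPM and its partner Ifngr2 at 38.5 and 32.4 CPM. Serpinb9, which protects against Gzmb, was 2.68-fold higher in T22 malignant cells (2.55 to 2.82), at 54.4 and 20.3 CPM, and thus lay on the other side than in NK cells. The further granzyme inhibitors Serpinb6b (48.5 and 19.2 CPM) and Serpina3n (97.5 and 0.36 CPM) were also higher in T22 malignant cells, and Serpinb9b was near 0 in both (1 and 62 UMIs).

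Across the 22 labels of the long-term pools, the genes whose log2(CPM + 1) followed a member most closely were searched among 11861 genes at 10 CPM or more in some label. Cd96 was among the closest 3 of Gzmb (r = 0.972), Gzmc (0.962), Prf1 (0.967) and Fasl (0.992). Ctsw, a cathepsin of cytotoxic lymphocytes, was among those of Gzma (0.945), Gzmc (0.960), Nkg7 (0.983) and Ncr1 (0.972). Klrk1 stood apart, with Cd244a (0.968), Ccr2 (0.954) and Il12rb2 (0.948), and so did Gzmk, with Klrg1 (0.923). These correlations are over 22 labels that share pools and depth, and most of their points are labels near 0.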

How the data were processed

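The authors captured tumor cells tagged with oligos on the 10x Genomics 3′ v3.1 kit and counted UMIs with Cell Ranger 6.0.0, introns included, on GRCm38. The study states a minimum of 1000 genes per cell in its methods and of 400 in its reporting summary, with at most 20% mitochondrial UMIs and with Scrublet doublets removed. The deposited cells had at least 402 genes (8635 of 53946 had fewer than 1000) and at most 9.995% mitochondrial UMIs. The deposited tables hold raw UMI counts per cell with the authors' cell label, and no doublet caller was rerun.

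Counts were summed per label and experiment and divided by all UMIs of the same cells, giving CPM per 1000000 UMIs (pandas 2.3.3 and numpy 2.4.6 under Python 3.11.15, with intervals from scipy 1.17.1 and plots from matplotlib 3.10.9). Intervals are exact Poisson, Clopper-Pearson or conditional binomial at 95% and cover counting error only. A count of 0 allows up to 3 counts. T22 and T127 were compared in labels with at least 50 cells in both, for genes with at least 10 UMIs expected in the smaller group, as log2 of CPM + 1, and a gene counted when past 2-fold. Shares of cells used cells thinned to 2000 UMIs. Named genes were the 10 members, lists by role and the 3 closest genes by pattern. The fold comparison was tried on simulated Poisson counts with known folds. These had no spread between cells, tumors or pools, so they do not cover genes carried by few cells. The members and lists were chosen with earlier results of these data known. No sequence or coordinate is given, because no mouse genome was used here. Alternatives were other filters, fold limits, pseudocounts, cell means, thinning and leaving out each pool.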

Additional observations from a re-analysis of the deposited data

Results flagged for a closer look

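Of 58 sets of pools examined, 3 had a pool far from the others, about the number that chance gives at 1 in 20. All 3 were long-term pool 2 in the label CD4_Tcm-TCF7, a pool that shared 3939 barcodes with pool 1 and 1082 with pool 3 and may not be a separate capture from them. Gzma was at 1147 CPM there (others 29.9 to 496), Gzmc at 9001 CPM (others 85.3 to 2765) and Prf1 at 1063 CPM (others 48.0 to 374). The pool had 74 such cells, with the Gzma UMIs in 11 cells, of which 1 held 61.6%, the Gzmc UMIs in 13 cells, of which 1 held 44.6%, and the Prf1 UMIs in 18 cells, of which 1 held 36.7%. Without pool 2 the long-term level of the label was 188 CPM for Gzma (258 with it), 927 CPM for Gzmc (1516) and 141 CPM for Prf1 (208).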

How the results depend on the processing

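No value had a test, so a change is a move past the standard deviation between pools, or between pairs of T22 and T127 pools for log2 ratios. A value can move in this sense and still lie within the range of the pools. No paired analysis was possible because the comparisons of T22 with T127 come from no test and their pools share only a number. With 1 pool left out, NK cells had 2 members higher in T22 (2 to 2) and 3 higher in T127 (3 to 3), the median log2 ratio ran from −0.34 to −0.15, 9 to 9 members were highest in long-term NK cells, and the NK share of the long-term member UMIs ran from 51.83 to 57.27%. In CD4_Tcm-TCF7, 5 to 7 members were higher in T127 and 0 to 0 in T22 (7 without T127 pool 1). Leaving out 1 of long-term pools 1 to 3, which shared barcodes, may not remove a separate capture. At a 3-fold limit 1 member was higher in T22 (Ifng) and 2 in T127. Without NK cells with a CD3 UMI the median log2 ratio was −0.09 and the NK share 45.64%, since fewer cells counted as NK. With all deposited copies of shared barcodes the share was 54.44%. Thinning lowered the long-term Gzmc level from 10311 to 6139 CPM, over 1.5-fold but within the spread of its pools, and moved its log2 ratio of T22 to T127 closer to 0, from −6.00 to −5.36. With 1 pool left out, none of 80 member levels or 80 log2 ratios moved, but leaving out 1 pool can hardly shift a value that far. Of 70 member levels at other settings 4 moved (Nkg7 as 2479 CPM by the mean of cells and, thinned, Nkg7 2395, Fasl 139 and Klrk1 446 CPM). Of 70 log2 ratios at other settings 7 moved. These were Gzmc (−7.69), Prf1 (−1.25) and Nkg7 (−0.28) without cells with CD3, Prf1 (−1.22) and Nkg7 (−0.30) by the mean of cells, Nkg7 (−0.26) thinned and Gzmk (0.12) with 10 CPM added. No log2 ratio past 2-fold changed its sign. Few UMIs limit the values of Gzmk and, in T127 NK cells, of Ifng (39 UMIs). Few cells limit every T127 label with fewer than 50 cells.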
